A study of Mus musculus with 2 samples.

Results

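Dido1 encodes the protein whose binding was mapped in this study, and the chromatin immunoprecipitation sequencing (ChIP-seq) peak list held 8 peaks around it. They were chosen by position alone, as every listed peak lying wholly inside a 65 kb window of chromosome 2 (mm9) drawn around Dido1. The window runs from 14.04 kb below the lowest member to 7.77 kb above the highest. The 8 stand out of 2888 peaks in all and 229 on that chromosome. The window had been drawn with results of the list in view, so ranks and levels below are descriptions. Dido1 (gene ID 23856) lies on the minus strand, so peaks are numbered 1 to 8 from the highest coordinate to the lowest, in the 5′ to 3′ direction of the gene.

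The cells were mouse embryonic stem cells of strain C57BL/6. Their genotype is given as Dido3deltaCT+HADido3: cells with the Dido3deltaCT allele to which HA-tagged Dido3 had been returned. They grew under self-renewal conditions with leukemia inhibitory factor, a cytokine that keeps such cells undifferentiated. The series had 1 ChIP library, made with a polyclonal anti-HA antibody, and 1 input library without antibody. Both carry the same allele and the same HA-Dido3. No anti-HA library of cells without HA-Dido3 was analysed here, so the tagged protein and non-specific precipitation cannot be told apart at any peak. There is no replicate, and no test between conditions was possible.

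Dido1 gives several protein isoforms by alternative splicing, of which Dido3 is the largest. All share an N-terminal PHD finger, a small zinc-binding fold that recognises histone H3 trimethylated on lysine 4, a mark of active promoters. The C-terminal part found only in Dido3 is encoded by the last, large exon of the gene. Returned HA-Dido3 is coded by added DNA. Where that DNA holds exons of the gene, reads from it align to those exons and can raise ChIP and input alike, so the input level at each peak is given beside the ChIP level. Exons, introns and start sites of Dido1 in mm9 were not used here, so each peak is placed by its distance from the others and not within an exon. In the RefSeq gene table (GRCm38.p6), the protein-coding neighbours of Dido1 are Gid8, which encodes a subunit of a ubiquitin ligase complex, on the 5′ side and Tcfl5, a transcription factor gene, on the 3′ side.

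HA-Dido3 ChIP tags around Dido1 were concentrated in 2 broad peaks that stood 19.67 kb apart, summit to summit. Peak 2, of 2292 bp, held 170 tags and peak 8, of 1259 bp, held 71. Together they had 241 of the 359 tags in the 8 peaks (67.1%) on 54.0% of their length. The other 6 peaks were 273 to 652 bp long and held 10 to 28 tags each. The 8 peaks covered 6579 bp, or 10.12% of the 65 kb window.

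Peak 1 lay farthest 5′ and stood alone. It spanned 180436580 to 180437231 (652 bp) with its summit 202 bp from the start, and held 22 tags at a fold enrichment of 15.65 and a score of 108.49. The score is minus 10 times log10 of the p-value given by the peak caller. Fold enrichment compares the ChIP signal at the summit with the background the caller expected there. All scores, folds and false discovery rates are the authors' values, and counts of tags are those deposited. Peak 1 was separated from peak 2 by 21.29 kb without a listed peak, the widest gap among the 8. Among the 229 other listed peaks within 10% of its length, only 5 held fewer tags, while 90 had a lower fold.

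Peak 2 was the strongest of the window by score, tags and tags per kb. It spanned 180412994 to 180415285, with its summit 1154 bp from the start, close to its middle. Its score of 1226.47 ranked 44 of 2888, its 170 tags (95% interval 145.4 to 197.6) ranked 51 and its fold of 31.31 ranked 116. Tag intervals here are exact Poisson intervals and cover counting error only. They hold no spread between libraries, and would be too narrow if the tags included PCR copies of 1 fragment. Peak bounds and listing were set by these same tags, which the intervals do not take into account. Among 27 other peaks of like length, the median was 166 tags (quartiles 132.5 and 194) and 16 held fewer than peak 2. Its tag number was therefore that of a typical peak of its length. The long extent of the peak set it apart from most of the list, whose median length was 391.5 bp.

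Peaks 3, 4 and 5 followed directly 3′ of peak 2. Peak 3 (180412462 to 180412782, 321 bp) lay 211 bp from it and had 15 tags, a score of 58.17 and a fold of 9.09. Peak 4 (180411960 to 180412449, 490 bp) was only 12 bp from peak 3 and held 20 tags at a score of 90.93 and a fold of 10.1. The 3 peaks from 2 to 4 thus formed a nearly unbroken stretch of 3.33 kb with 205 tags. Peak 5 (180409645 to 180410294, 650 bp) lay another 1.67 kb away and held 23 tags at a score of 71.89 and a fold of 8.98. Peak 3 held more tags than 725 of 763 peaks of like length, and only 21 of the 763 had a lower fold. The background of peak 3 was raised, as given below. A raised background lowers fold and raises the number of tags a peak needs to be listed.

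Peak 6 had the lowest score and the fewest tags of the 8, though not the lowest fold. It spanned 180406318 to 180406590 (273 bp), 3.05 kb beyond peak 5, and held 10 tags (95% interval 4.8 to 18.4) at a score of 56.23 and a fold of 13.7. Its listed false discovery rate was 8.47%, the highest of the 8, and that of peak 3 was 7.18%. These were the 2 members with a rate over 5%, against 35.4% of the list.

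Peaks 7 and 8 formed the 3′ end of the series, 9.29 kb beyond peak 6. Peak 7 (180396381 to 180397022, 642 bp) held 28 tags at a score of 89.1 and had the lowest fold of the 8, 8.08. Only 9 of 239 peaks of like length had a lower fold, and 126 of the 239 held fewer tags. Peak 8 (180394040 to 180395298), 1.08 kb further, had its summit 442 bp from the start. Its 71 tags (95% interval 55.5 to 89.6) gave a score of 449.28, which ranked 202, and the highest fold of the window, 33.27, which ranked 95. For its length the tag number was again ordinary (median 71.5 over 76 peaks of like length), while 64 of the 76 had a lower fold.

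**Figure D1:**
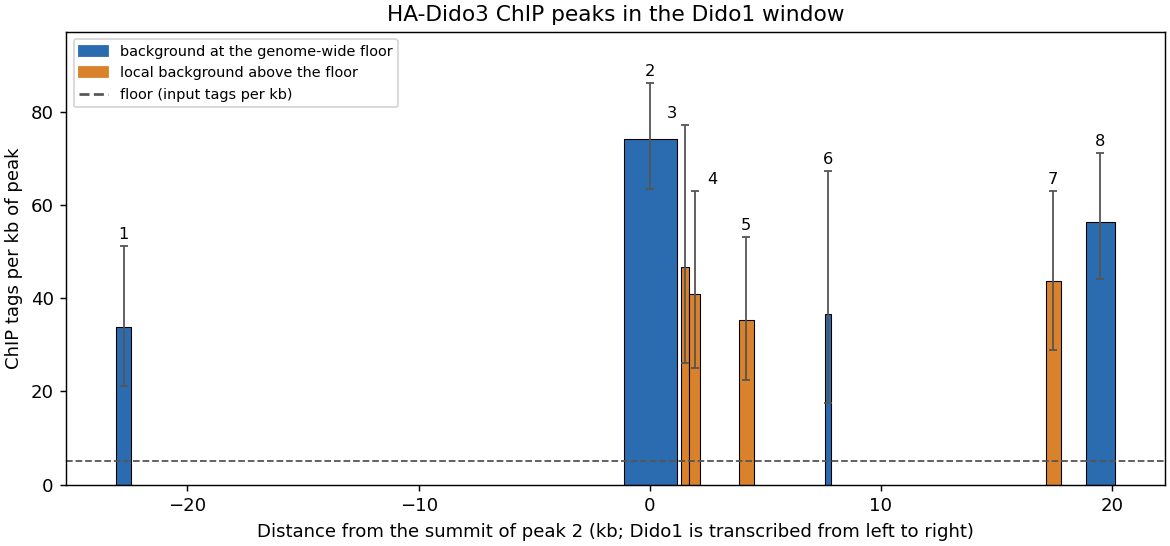
ChIP tags per kb of peak (bar height, with 95% Poisson intervals) for the 8 peaks, placed by their distance in kb from the summit of peak 2, with bar width equal to peak length. Peak 2 (74.2 tags per kb) and peak 8 (56.4) have the tallest bars, beside 33.7 to 46.7 in the other 6. The interval of peak 8 overlaps those of all the other 6. The 4 peaks with a raised local background are numbers 3, 4, 5 and 7.

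Tag density varied less than tag number. Peak 2 had 74.2 tags per kb (95% interval 63.4 to 86.2) and peak 8 had 56.4 (44.0 to 71.1), and these intervals overlapped. The smaller peaks ranged from 33.7 tags per kb in peak 1 to 46.7 in peak 3, and all of their intervals overlapped one another. The interval of peak 2 lay above those of peaks 1, 4, 5 and 7 and overlapped those of peaks 3 and 6, the shortest members. That of peak 8 overlapped the intervals of all the smaller peaks. The median was 42.2 tags per kb over the 8 and 38.8 over the list.

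The height of the pileup at each summit could be recovered from fold and background. It was 17 tags in peak 8 and 16 in peak 2, counts too close to rank the pair by height. The order of their folds rests on these same counts. Peak 2 was the wider of the pair. Summits of the other 6 were 7 to 9 tags high. Over the 325 listed peaks longer than 1000 bp, the median tag number was 93 and the median fold 24.53. Their median summit height was 14.7, from unrounded recovered heights of those peaks whose background was solved. Both broad Dido1 peaks were thus above that median fold, and peak 2 alone was above the median tag number. Of the 8, 2 were longer than 1000 bp, against 11.3% of the list.

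**Figure D2:**
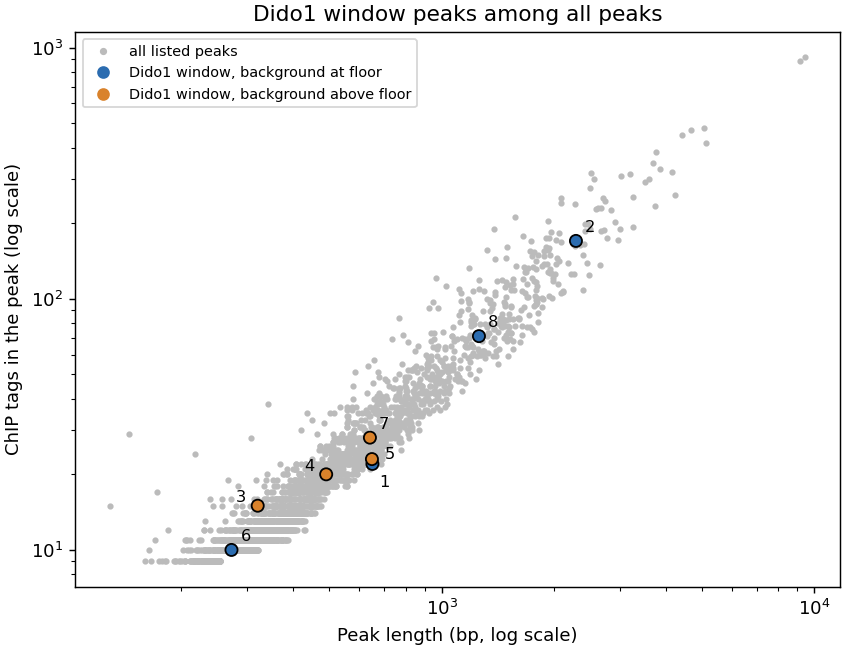
ChIP tags against length for all 2888 listed peaks (grey, both axes logarithmic) with the 8 Dido1 window peaks numbered. The numbered points lie within the band of the list, with peak 2 (2292 bp, 170 tags) and peak 8 (1259 bp, 71 tags) toward its upper right.

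The input library was seen only through the background that the peak caller used. That background is the largest of a genome-wide floor and the densities of input tags in the peak, in 1 kb and in 10 kb around it. Solving score, tags and length for it gave a floor of 5.16 input tags per kb. In 4 of the 8 peaks (1, 2, 6 and 8) the background was at this floor. The other 4 had a local background above it, against 27.3% of the list. In each of these 4, the background equalled a whole number of input tags in 1 kb: 10 at peak 3, 7 at peak 4, 9 at peak 5 and 10 at peak 7. These are 1.94, 1.36, 1.74 and 1.94 times the floor. The summits of peaks 3 and 4 were 319 bp apart, so their 1 kb windows may share input tags and the 4 counts are not 4 separate measurements. A background of at least 7 input tags per kb was found at 11.8% of the list. That limit is the lowest value of these 4 themselves, so all 4 reach it by construction. Among peaks of like length, a background above the floor was found at 23.2% for peak 3 and 28% for peak 4. It was 31.9% for peak 5 and 31.4% for peak 7. Inside peaks 3, 4, 5 and 7 themselves, the same background allows at most 3, 3, 5 and 6 input tags. Part of each 1 kb count therefore lay outside its peak.

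The raised input counts were small. Their 95% Poisson intervals were 4.80 to 18.4 for 10 tags, 4.12 to 17.1 for 9 and 2.81 to 14.4 for 7, and each interval included the floor of 5.16. The caller keeps the largest of several densities, so a background above the floor is by construction the highest of its windows. Whether DNA of the HA-Dido3 construct had a part in these input tags was not tested, since the peaks were not placed in exons.

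At both broad peaks the background was at the floor, so no raised input was recovered there. The limits below are on counted tags and carry counting error, as the raised counts do. They do not show that input there was lower than at the peaks with a raised background. A background at the floor means that at most 5 input tags lay in the 1 kb window and at most 51 in the 10 kb window of each peak. Both broad peaks are longer than 1 kb, so the 1 kb window covers only a part of each. It also limits the input inside the peak to at most 11 tags in peak 2, beside 170 ChIP tags, and at most 6 in peak 8, beside 71. Input in all 8 peaks together was at most 38 tags, where the floor density gives 34. The ChIP tags in them, scaled to the input library by the caller's factor of 0.959, came to 344.4. That ratio, at least 9.06, is a description, since a peak is listed only where ChIP exceeded the background.

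**Figure D3:**
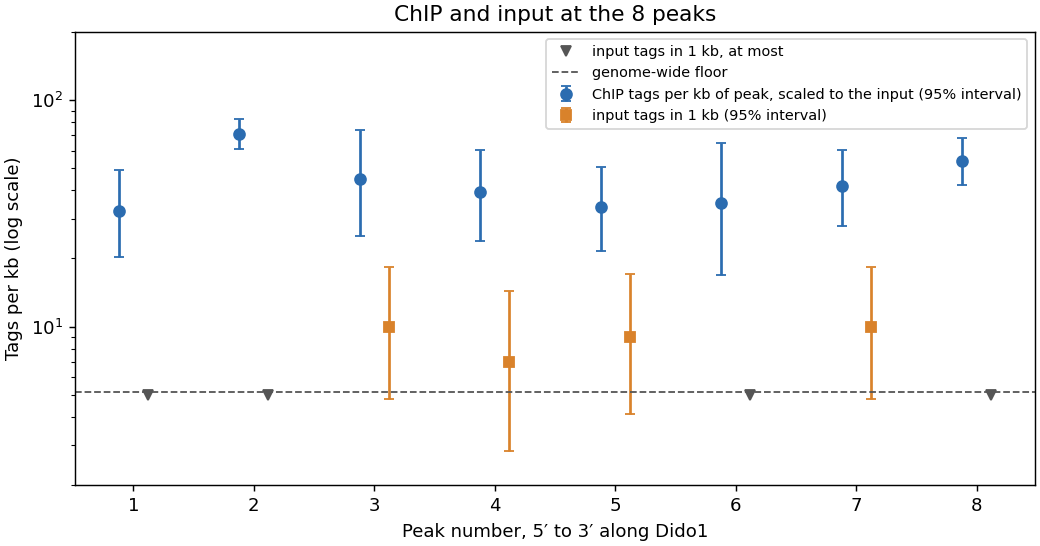
Tags per kb (logarithmic axis) at the 8 peaks: ChIP tags scaled to the input (circles, 95% intervals), input tags in 1 kb where recovered (squares, 95% intervals) and the upper limit of 5 where the background was at the floor (triangles). ChIP lies above input at every peak, as the calling of peaks requires. The intervals of the recovered input counts include the dashed floor of 5.16.

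Among the smaller peaks, folds differed with the background while the intervals of tag density overlapped. Fold is the summit height over the background, and the heights were recovered from those same 2 values. The folds at the floor given here are therefore a recalculation and not a separate observation. Peaks 3, 4, 5 and 7 had the 4 lowest folds of the window, 8.08 to 10.1. With the background set to the floor, the same summit heights would give folds of 17.61, 13.7, 15.66 and 15.66, beside 15.66 for peak 1 and 13.7 for peak 6. Intervals of tag density for peaks 3, 4, 5 and 7 overlapped those of peaks 1 and 6 (33.7 and 36.6 per kb). Peaks 3, 7 and 4 were denser than both, with 46.7, 43.6 and 40.8 per kb. Peak 5, with 35.4, lay between peaks 1 and 6. A peak on a higher background needs more tags to be listed, so this order is a description. The folds of peaks 2 and 8 remained at 31.31 and 33.27, since their background was the floor itself. Scaled ChIP tags over the expected background, averaged over the whole peak, were 13.8-fold in peak 2 and 10.5-fold in peak 8. The other 6 ranged from 3.77-fold in peak 5 to 6.81-fold in peak 6, and the median of the list was 6.81-fold.

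**Figure D4:**
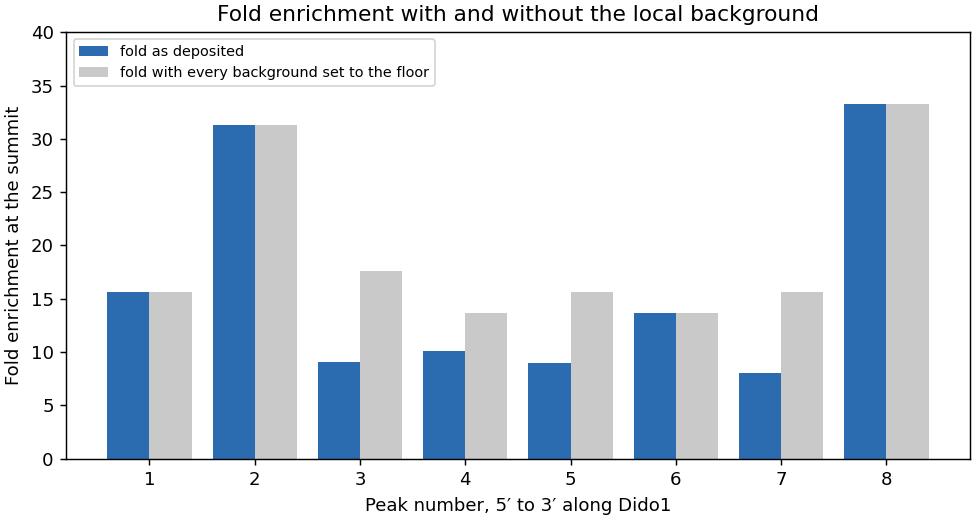
Fold enrichment at the summit of each peak as deposited (blue) and with every background set to the genome-wide floor (grey). Peaks 3, 4, 5 and 7 move from between 8.08 and 10.1 to between 13.7 and 17.61, while peaks 2 and 8 stay at 31.31 and 33.27.

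By the listed false discovery rate the strongest peak did not look best. It was 4.55% for peak 2 and 1.49% for peak 8, but 0.94% for peaks 1 and 4 and 0.92% for peak 7. The rate of a peak is a ratio: the peaks found with the roles of ChIP and input exchanged, at an equal or higher score, over the rank. For peak 2 this was 2 exchanged peaks at rank 44, for peak 8 it was 3 at rank 202, and for peak 7 it was 11 at rank 1190. The rate of peak 2 therefore rests on 2 such peaks anywhere in the genome. Scores of at least 100 were reached by 3 of the 8 (peaks 1, 2 and 8), against 35.9% of the list. A fold of at least 20 was reached by 2, against 14.5% of the list.

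Peaks 2 to 8 made up 1 of 5 runs in the list with 7 or more peaks, where a run joins peaks with gaps of at most 10 kb. This run rests on the gap of 9.29 kb between peaks 6 and 7. With gaps of at most 5 kb it split into peaks 2 to 6 (5 peaks, 238 tags, 8.97 kb) and peaks 7 and 8 (99 tags, 2.98 kb), and the other 4 runs kept their peaks and extent. Joined at 10 kb, it had the most tags (337) and the widest extent (21.25 kb) of the 5, the others having 121 to 277 tags over 5.23 to 9.99 kb. Its highest score also exceeded those of the other 4, which were 116.53 to 746.66. Peaks filled 27.9% of its extent and 45.6% to 84.8% of the others, so it was also the loosest of the 5 at that distance. A run on chromosome 2 at 71188057 to 71196968, with 8 peaks and 277 tags, was most like it in having 2 peaks longer than 1000 bp. There, 3 of 8 backgrounds were above the floor, against 4 of 7 in the Dido1 run. In the remaining runs it was 2 of 9 on chromosome 2 (157416185 to 157421415), 9 of 9 on chromosome 1 and 7 of 7 on chromosome 7.

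The window was drawn with results of the list in view, so the distance of the 8 peaks from its edges is only a description. Peak 8 was the member nearest the lower bound and peak 1 the one nearest the upper bound. Beyond the lower bound the nearest listed peak (179994372 to 179994690, 11 tags, fold 11.74, score 58.7) was 385.31 kb away. Beyond the upper bound, 5′ of the window, the nearest (180458863 to 180459200, 12 tags, fold 15.65, score 64.75) was 13.86 kb away.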

How the data were processed

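Anti-HA ChIP and input DNA of 1 culture condition were sequenced, 1 library each. Per the submitters' processing notes, Bowtie, SAMtools and MACS 1.4 were used with build mm9. Options and read numbers are not given there, so depth is unknown. The authors deposited 1 peak list: counts of ChIP tags per peak, a score (minus 10 times log10 p), fold enrichment as a ratio, and the false discovery rate in percent, per the file headers. The window and every measure were chosen with earlier results of these data known. All 8 peaks in the window are named; other peaks only as the nearest outside it or in a run of at least 7.

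The background was solved from the Poisson probability of exceeding the scaled tag count, rounded down. A scaling of 0.9593 returned most scores, and 2053 of 2885 solvable peaks (71.2%) then shared 1 density within 0.1%, taken as the floor; 789 (27.3%) lay above it, 43 (1.49%) below it, and 3 with scores of 3000 or more were not solved. Of those above, 765 (97.0%) gave a whole number of input tags in the peak, 1 kb or 10 kb. Folds were multiples of 1.9569 within 0.01 for 2099 peaks, which left the same number above the floor, 789. Summit heights came out whole within 0.02 for 97.7%. That the caller compares these windows is taken from knowledge of MACS, not from the file. On 1998 simulated peaks, 100% of backgrounds were recovered within 0.1%. Their scores were made with the same relation, so this checks the solving and not that the caller used it. The 43 peaks below the floor are not accounted for by the rule of the largest density. The work was done in Python 3.11.15 (scipy 1.17.1, numpy 2.4.6, pandas 2.3.3; plots with matplotlib 3.10.9).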

Additional observations from a re-analysis of the deposited data

How the results depend on the processing

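The window held 3 peaks at a score of at least 100 in place of 8, and 6 at a false discovery rate of at most 5%. Widening it by 10 kb on each side left 8 peaks, and by 50 kb gave 11. Joining peaks within 1 kb split the 2 runs of the window into 6, and within 5 kb into 3, which left no run of 7 peaks at Dido1. Ranked by fold, the strongest peak was peak 8 (start 180394040) in place of peak 2 (start 180412994), which led by score, tags and tags per kb. The window's 359 tags became 263 and 334 under the limits on score and false discovery rate. The 4 raised backgrounds were 4 also with a fold tolerance of 0.05 and by tags and score. Without scaling of ChIP tags, an alternative added after the data were seen, the highest background was 2.215 times the floor instead of 1.937. No paired analysis was possible because the series had 1 library of each kind. Depth is unknown, so stretches without a peak cannot be read as unbound.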

Other observations

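A group of 3 short peaks lay beyond the window, on the 5′ side of Dido1. They fell within 1.75 kb, the nearest 21.63 kb from peak 1, and held 12, 15 and 9 tags. Their folds were 15.65, 15.65 and 13.7, and their scores 64.75, 73.14 and 50.1. All 3 had a background at the genome-wide floor. In which gene they lie was not analysed here.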
